A study of Mus musculus with 12 samples.

Results

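The Ulk complex is the protein kinase assembly that starts autophagy, and 5 of its genes were followed here across 12 muscle arrays: the kinases Ulk1 and Ulk2, the scaffold subunits Atg13 and Rb1cc1 (also known as FIP200), and Ambra1, a cofactor that binds the kinase. They are the 5 entries with these symbols among the 23185 entries of the deposited table that carry a single gene symbol. The choice was made with earlier results of these data known, and the study had named Ulk1 and Ulk2 as increased. Shares over all genes set beside counts of members are therefore a description. All mice were injected intraperitoneally on alternate days over 6 days. The IL-8 and vehicle mice were male C57BL/6J mice, 8 weeks old, and on day 7 their TA muscle (tibialis anterior) was taken, which lies along the shin and is made up mostly of fast fibers. In the IL-8 group (n = 5), each injection held 50 µg/kg of recombinant human interleukin-8, a chemokine that mice lack and that acts on the receptor CXCR2. In the KC group (n = 4), it held 50 µg/kg of KC, a mouse chemokine that acts on the same receptor. The labels name the KC tissue only as skeletal muscle, and for KC mice the sources used here give neither strain, sex nor age, nor the day of harvest or the diluent. In the vehicle group (n = 3), mice received 0.1% BSA, which was also the diluent of IL-8. Vehicle replicates 1 and 2 are titled Veh Control, and replicate 4 is titled only Control and was taken as vehicle. Nothing labels the arrays as separate litters or batches, and p-values measure the spread between these arrays.

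Autophagy encloses portions of the cytoplasm in a double membrane and delivers them to lysosomes for breakdown. When nutrients are plentiful, the kinase complex mTORC1 phosphorylates Ulk1 and Atg13 and holds the complex inactive, and when energy falls, AMPK phosphorylates Ulk1 and activates it. The active kinase then phosphorylates the lipid kinase complex that marks the site where the membrane forms. In skeletal muscle, autophagy is known to take part in the turnover of proteins and mitochondria, and FoxO transcription factors are known to drive autophagy genes during atrophy.

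The members lie on 4 chromosomes of the mouse genome (GRCm38.p6). Ulk1 spans chr5:110784489-110810120, Ulk2 chr11:61775598-61855334 and Rb1cc1 chr1:6214634-6276375. Atg13 and Ambra1 lie close together on chromosome 2, with 19540 bases and the gene Harbi1 between them. Atg13 spans chr2:91674612-91710597 on the minus strand and Ambra1 chr2:91730138-91918849 on the plus strand. The promoter windows are shown for the 4 members that the RefSeq table lists, and Rb1cc1 has no window there. Each window holds 250 bases before and 50 bases after an annotated start, read 5′ to 3′ on the gene's strand, and capitals mark matches of the GC box CCGCCC or its reverse complement GGGCGG. The Ulk1 window is chr5:110810032-110810331 (minus strand), the Ulk2 window chr11:61855043-61855342 (minus), the Atg13 window chr2:91710543-91710842 (minus) and the Ambra1 window chr2:91729888-91730187 (plus).
Ulk1: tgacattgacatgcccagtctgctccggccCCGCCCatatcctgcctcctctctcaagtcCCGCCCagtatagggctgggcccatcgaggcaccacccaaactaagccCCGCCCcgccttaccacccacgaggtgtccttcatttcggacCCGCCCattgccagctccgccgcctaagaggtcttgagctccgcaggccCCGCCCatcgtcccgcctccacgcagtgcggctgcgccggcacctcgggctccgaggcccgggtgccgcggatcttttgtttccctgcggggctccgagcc
Ulk2: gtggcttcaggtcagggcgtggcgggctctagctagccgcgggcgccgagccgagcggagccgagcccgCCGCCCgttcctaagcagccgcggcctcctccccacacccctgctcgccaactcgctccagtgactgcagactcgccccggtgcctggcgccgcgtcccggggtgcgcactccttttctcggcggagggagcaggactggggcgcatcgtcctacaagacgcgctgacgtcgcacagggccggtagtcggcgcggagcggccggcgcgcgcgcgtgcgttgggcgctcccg
Atg13: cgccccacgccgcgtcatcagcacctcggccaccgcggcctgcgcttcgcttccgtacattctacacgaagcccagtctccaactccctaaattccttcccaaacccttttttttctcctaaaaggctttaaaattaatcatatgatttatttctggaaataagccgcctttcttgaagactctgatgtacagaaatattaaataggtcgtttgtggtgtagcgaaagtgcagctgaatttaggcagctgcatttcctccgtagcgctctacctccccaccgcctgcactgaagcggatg
Ambra1: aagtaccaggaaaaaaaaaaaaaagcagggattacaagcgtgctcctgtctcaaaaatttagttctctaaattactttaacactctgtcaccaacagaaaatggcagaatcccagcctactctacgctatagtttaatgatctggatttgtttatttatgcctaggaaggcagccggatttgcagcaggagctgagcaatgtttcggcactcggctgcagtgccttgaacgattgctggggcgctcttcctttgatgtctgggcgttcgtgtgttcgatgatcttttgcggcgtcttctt

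The windows differed in base composition. The G and C content was 68% for Ulk1 and 74.7% for Ulk2, above the median of 52.7% over 32851 RefSeq promoter windows of the same length, and 49% for Atg13 and 44.7% for Ambra1, below it. The GC box, a motif chosen after the sequences were seen, matched 5 times in the Ulk1 window and 1 time in the Ulk2 window, in neither the Atg13 nor the Ambra1 window, and in 35.7% of all windows. The E-box CACGTG, the core of the element bound by Tfeb and Tfe3, was in 7.15% of all windows, and the forkhead motif GTAAACA, searched on both strands, was in 3.65%. Neither motif was in any of the 4 member windows. A match or its absence describes these letters in this window only.

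Each value is a log2 expression level that the authors made by robust multi-array average (RMA), and the number of arrays limits its precision, since array data carry no sequencing depth. Markers of skeletal muscle fibers averaged 11.67 to 12.14 in every array, as fits the labelled tissue. Liver transcripts stood out in 3 arrays, IL-8 replicate 1 and vehicle replicates 2 and 4, which are called the liver-transcript arrays. In each of these, all 10 liver markers were above their level in each of the other 9 arrays, and the mean of the list was 5.95 in IL-8 replicate 1 and 6.72 and 6.39 in vehicle replicates 2 and 4, against 2.73 to 3.36 elsewhere. The mean of 5 endothelial markers was 6.21 to 6.66 in IL-8 arrays, 5.73 to 6.46 in KC arrays and 5.73 to 6.67 in vehicle arrays, and leukocyte markers were low in all groups, with list means of 3.11 to 3.66, 3.10 to 3.69 and 3.20 to 3.80 in the same order. The mean of 5 fibroblast markers was 8.86, 8.29, 7.95, 8.29 and 7.45 in IL-8 replicates 1 to 5, 7.72, 9.05, 8.59 and 9.18 in KC replicates 1 to 4, and 8.57, 8.69 and 8.69 in vehicle replicates 1, 2 and 4, so that 4 of 5 IL-8 arrays were below every vehicle array. The standard deviation of log2 values over all genes of an array was 2.01 to 2.04 with IL-8, 1.94 to 2.01 with KC, and 2.01, 1.88 and 1.90 in vehicle replicates 1, 2 and 4. What part the liver transcripts, the endothelial and fibroblast lists or the array spread have in the member values was not tested, and in whole muscle, fewer cells of a type and less RNA per cell cannot be told apart.

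The comparison of IL-8 with vehicle asks which muscle genes change when the chemokine is given systemically. In it 2 members were called, both higher with IL-8: the scaffold subunit Atg13, at 1.72-fold, and the cofactor Ambra1, at 1.67-fold. The kinases Ulk1 and Ulk2 had estimates of 2.48-fold and 1.47-fold but fell just outside the limits for a call, and Rb1cc1 was close to its vehicle level at 1.10-fold. A call required that limma give an adjusted p (Benjamini-Hochberg, over all 23185 genes) no higher than 0.1 and a change of 1.5-fold or more. In the upward direction 1.75% of all genes passed, against 2 of 5 members. That share counts dim genes too. Among the 11592 genes above the median level, limma called 749 higher, including 3 members, Ulk1, Atg13 and Ambra1. With Storey q-values from the limma fit over all genes, the same 3 members were called (Ulk1 at q = 0.0589), with 952 genes called higher.

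Ulk1, the kinase that phosphorylates the autophagy machinery, was at 5.59, 6.64, 6.58, 6.88 and 7.31 in IL-8 replicates 1 to 5, against 5.90, 4.91 and 5.07 in vehicle replicates 1, 2 and 4. Thus 4 of 5 IL-8 arrays lay above every vehicle array, while IL-8 replicate 1, a liver-transcript array, lay below vehicle replicate 1, the only vehicle array without liver transcripts. The log2 fold change was 1.31 (standard error 0.35, 95% interval 0.54 to 2.08), with an adjusted p of 0.102 by limma and an exact two-sided permutation p of 0.0536, where 0.0179 is the smallest that 56 splits of these arrays allow. Ulk2, its close relative with overlapping function, was at 7.89, 7.90, 7.89, 8.01 and 8.12 with IL-8, against 7.70, 7.41 and 7.10 with vehicle. All IL-8 arrays lay above all vehicle arrays and within a narrow band, with a standard deviation of 0.10 over IL-8 arrays and 0.30 over vehicle arrays. The log2 fold change of 0.56 (standard error 0.14, 95% interval 0.24 to 0.88) had an adjusted p of 0.0992 by limma and missed the fold change limit, whose log2 value is 0.58. The exact permutation p was 0.0179. The study itself singled out both kinases on these same arrays, so their direction here is not independent evidence.

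Atg13, which links the kinase to the rest of the complex and carries inhibitory phosphorylation sites for mTORC1, was at 6.69, 6.76, 6.68, 6.91 and 7.01 with IL-8, against 6.49, 5.65 and 5.95 with vehicle. The groups did not overlap, and vehicle replicate 1 lay closest to the IL-8 arrays. The log2 fold change was 0.78 (standard error 0.18, 95% interval 0.38 to 1.18), with an adjusted p of 0.0914 by limma and an exact permutation p of 0.0179. Ambra1, which supports the stability of Ulk1 and joins it to ubiquitin ligases, was at 5.70, 5.84, 5.75, 5.83 and 5.98 with IL-8, against 5.50, 4.61 and 5.15 with vehicle. Here too the groups did not overlap, and vehicle replicate 1 was the highest vehicle array. The log2 fold change was 0.74 (standard error 0.18, 95% interval 0.34 to 1.14), with an adjusted p of 0.0954 by limma and an exact permutation p of 0.0179. Every IL-8 array was above every vehicle array for 3 of 5 members, Ulk2, Atg13 and Ambra1, as for 4.6% of all genes.

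Rb1cc1, the large scaffold that holds the complex together, was at 7.53, 7.26, 7.56, 7.47 and 8.03 with IL-8, against 7.41, 7.51 and 7.39 with vehicle. The IL-8 arrays reached both below and above the vehicle arrays, and IL-8 replicate 5 was the highest of them. The log2 fold change was 0.13 (standard error 0.16, 95% interval -0.23 to 0.50, adjusted p = 0.648), so the interval leaves out a change as large as the estimate for Atg13 or Ambra1. Of the 5 members, 4 had an unadjusted p under 0.05 with a higher level, as had 10.1% of all genes. The median log2 fold change was 0.74 over the members and -0.07 over all genes.

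**Figure D1:**
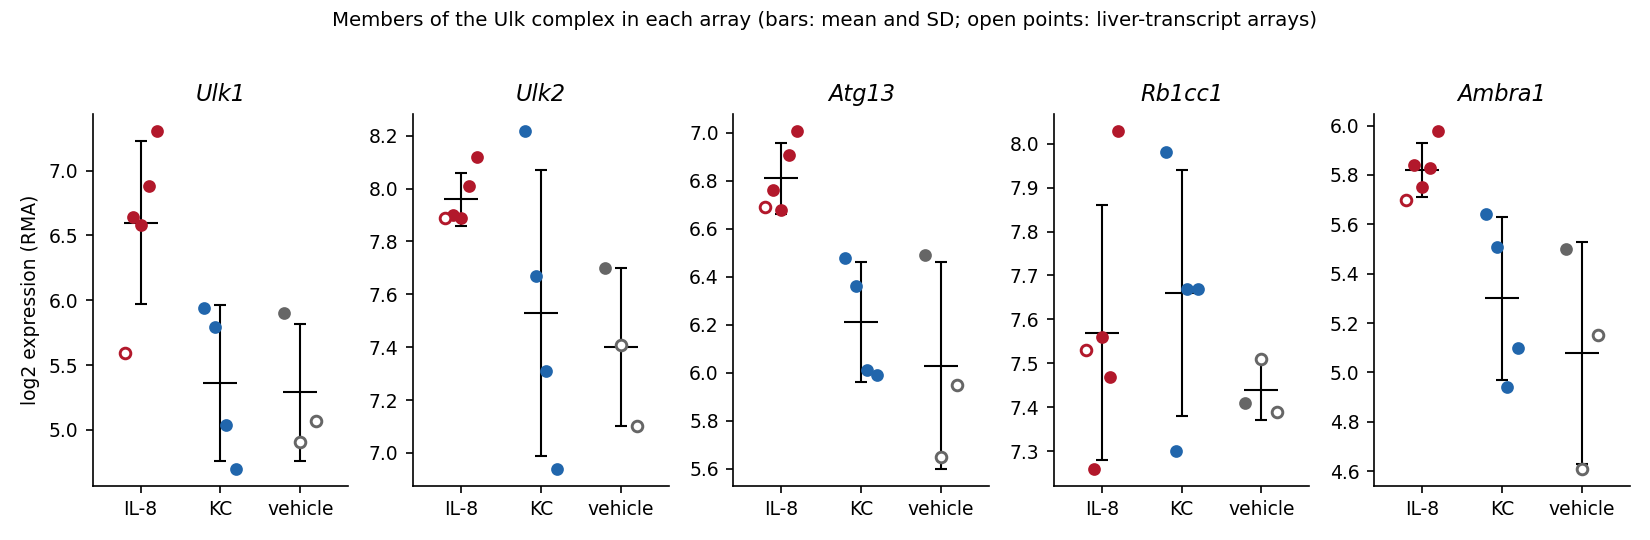
RMA log2 expression (y axis, a separate scale per panel) of each member in IL-8 arrays (n = 5), KC arrays (n = 4) and vehicle arrays (n = 3), with the group mean and SD as bars and the 3 liver-transcript arrays as open points. For Ulk2, Atg13 and Ambra1 all 5 IL-8 points lie above all 3 vehicle points, for Ulk1 only IL-8 replicate 1 (5.59) does not, and for Rb1cc1 the groups overlap.

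These calls were close to the limits. With all 12 arrays in 1 fit, limma gave an adjusted p of 0.103 for Atg13 and 0.104 for Ambra1. It called 117 of all genes in that fit. At a limit of 0.05 no member was called, and only 2 of all genes were. When each array was left out in turn, the number of members called was 4 without vehicle replicate 1 (all but Rb1cc1), 3 without IL-8 replicate 1 (Ulk1, Atg13 and Ambra1), and 0 by limma without any other single array, that is vehicle replicates 2 and 4 and IL-8 replicates 2, 3, 4 and 5. In the 6 fits without a call, the adjusted p of Ulk1, Ulk2, Atg13 and Ambra1 was 0.137 to 0.349. All log2 fold changes stayed positive, over 1.12 to 1.61 for Ulk1, 0.40 to 0.70 for Ulk2, 0.59 to 1.01 for Atg13, 0.50 to 0.94 for Ambra1 and 0.02 to 0.21 for Rb1cc1. Among the liver-transcript arrays, where IL-8 replicate 1 stands against vehicle replicates 2 and 4, the IL-8 minus vehicle difference was 0.60 for Ulk1, 0.63 for Ulk2, 0.89 for Atg13, 0.83 for Ambra1 and 0.08 for Rb1cc1. Among the other arrays, where vehicle replicate 1 is the only vehicle array, it was 0.96, 0.28, 0.35, 0.36 and 0.17 in the same order. The direction was the same in both sets, and the difference in the other arrays was smaller for Ulk2, Atg13 and Ambra1 and larger for Ulk1. With the liver-transcript arrays as a block, the log2 fold changes were 0.79, 0.44, 0.60, 0.57 and 0.13 in this order. In that fit 0 members were called by limma, with adjusted p-values of 0.211 to 0.824, and 0 of all genes.

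**Figure D2:**
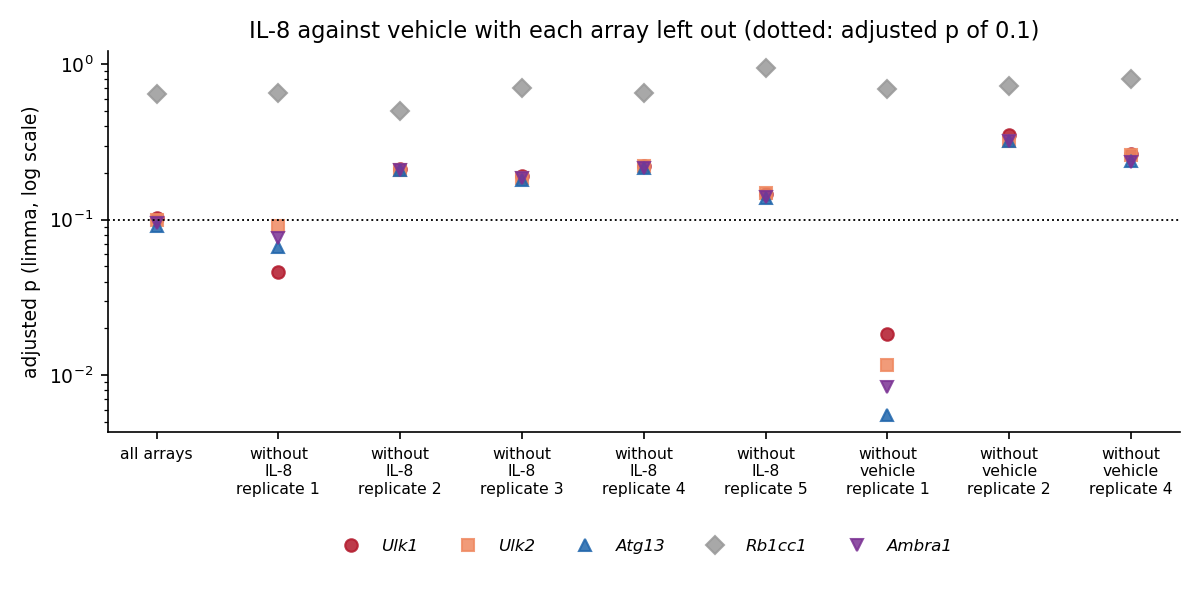
Adjusted p from limma (y axis, log scale) of each member for IL-8 against vehicle with all arrays and with each of the 8 arrays left out (x axis), with the limit of 0.1 dotted. Ulk1, Ulk2, Atg13 and Ambra1 lie close to the limit with all arrays (0.0914 to 0.102), below it without IL-8 replicate 1 or vehicle replicate 1, and above it without any other array.

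KC against vehicle asks the same of the mouse chemokine. None of the 5 members was called in it by limma, and neither was any of the 23185 genes (0% called). Before adjustment, 923 genes (3.98%) had a p under 0.05, and 0 members were among them. Without vehicle replicate 1, limma called 92 genes (5 of them higher with KC, 2204 with an unadjusted p under 0.05), and still 0 members. For 0 of 5 members were all KC arrays above all vehicle arrays, against 2.5% of all genes. Ulk1 was at 5.94, 5.79, 5.04 and 4.70 in KC replicates 1 to 4, which surrounds the 3 vehicle values above. Ulk2 was at 8.22, 7.67, 7.31 and 6.94, which reaches from below the lowest vehicle array to above the highest. In both kinases the KC arrays spread widely, with standard deviations of 0.60 and 0.54, and KC replicates 1 and 2 were higher than KC replicates 3 and 4.

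The other members overlapped with vehicle too. Atg13 was at 6.48, 6.36, 6.01 and 5.99 with KC, and Ambra1 at 5.64, 5.51, 4.94 and 5.10. In both, KC replicates 1 and 2 were again the higher pair. Rb1cc1 was at 7.98, 7.30, 7.67 and 7.67, and 3 of 4 KC arrays lay above every vehicle array. The log2 fold changes, with 95% intervals, were 0.07 (-0.68 to 0.82) for Ulk1, 0.13 (-0.50 to 0.76) for Ulk2, 0.18 (-0.31 to 0.67) for Atg13, 0.22 (-0.17 to 0.60) for Rb1cc1 and 0.21 (-0.33 to 0.76) for Ambra1, all with an adjusted p of 0.994. Each interval reaches past a 1.5-fold increase, so an increase of that size is not excluded, and 0.0286 is the smallest exact permutation p that 35 splits allow. Without the liver-transcript arrays, where vehicle replicate 1 alone stands for vehicle, the direction turned for Ulk1 (-0.53), Ulk2 (-0.16), Atg13 (-0.28) and Ambra1 (-0.20).

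The direct comparison of IL-8 with KC tests whether the responses to these chemokines differ. It called 2 of 5 members higher with IL-8, Ulk1 and Atg13, against 1.61% of all genes. For Ulk1 the log2 fold change was 1.24 (2.35-fold, standard error 0.33, adjusted p = 0.0872 by limma, exact permutation p = 0.0317), and 4 of 5 IL-8 arrays lay above every KC array, the exception being IL-8 replicate 1. For Atg13 it was 0.60 (1.52-fold, standard error 0.13, adjusted p = 0.0671, exact permutation p = 0.00794), and all IL-8 arrays lay above all KC arrays. For Ambra1 the groups did not overlap either, but its 1.44-fold difference (log2 0.52, standard error 0.15, adjusted p = 0.0938, exact permutation p = 0.00794) was under the fold change limit. Both non-overlapping members compare with 2.48% of all genes, and 0.00794 is the smallest p that 126 splits allow.

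Neither Ulk2 nor Rb1cc1 passed the test against KC. Ulk2 differed by 0.43 on the log2 scale (95% interval -0.03 to 0.88, adjusted p = 0.281), with the IL-8 arrays lying inside the wide KC range of 6.94 to 8.22. Rb1cc1 differed by -0.09 (95% interval -0.45 to 0.28, adjusted p = 0.820). A different effect of IL-8 and KC on these genes was therefore not shown. The IL-8 arrays serve in both comparisons that involve IL-8, so the 2 sets of calls are not independent. Leaving out KC replicate 3, KC replicate 4 or any of IL-8 replicates 2 to 5 left 0 members called by limma, while 4 were called without KC replicate 1, 3 without KC replicate 2 and 2 without IL-8 replicate 1. In that last fit, which holds no liver-transcript array, the log2 fold change was 1.49 for Ulk1 (adjusted p = 0.0417 by limma) and 0.63 for Atg13 (adjusted p = 0.0472).

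Over the 3 groups, the mean levels of 4 members stood in the same order, highest with IL-8 and lowest with vehicle. Ulk1 averaged 6.60 ± 0.63 with IL-8, 5.36 ± 0.60 with KC and 5.29 ± 0.53 with vehicle (SD, n = 5, 4 and 3). Ulk2 averaged 7.96 ± 0.10, 7.53 ± 0.54 and 7.40 ± 0.30 in this order. Atg13 averaged 6.81 ± 0.15, 6.21 ± 0.25 and 6.03 ± 0.43, and Ambra1 5.82 ± 0.11, 5.30 ± 0.33 and 5.08 ± 0.45. In all 4, KC and vehicle differed by less than the SD of either group, and no member was called between them. IL-8 was called higher for Ulk1 and Atg13 against KC and for Atg13 and Ambra1 against vehicle. Ambra1 against KC and Ulk2 against vehicle had adjusted p-values of 0.0938 and 0.0992 by limma but missed the 1.5-fold limit. Rb1cc1 averaged 7.57 ± 0.29, 7.66 ± 0.28 and 7.44 ± 0.07, with KC highest and no neighbors separated by a test.

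**Figure D3:**
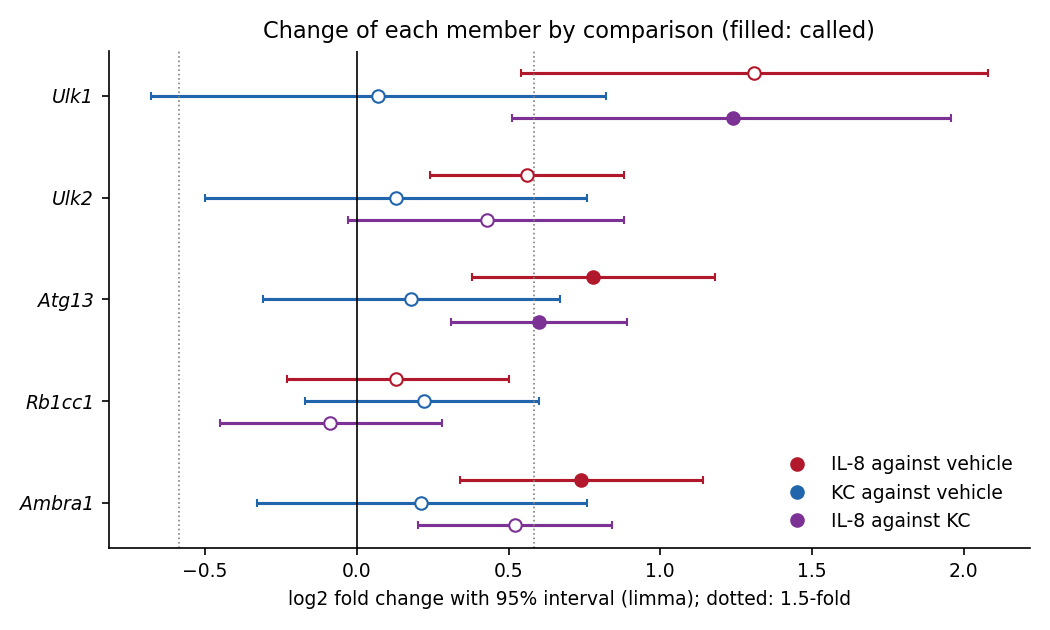
Log2 fold changes from limma (x axis) with 95% intervals for each member (y axis) in the comparisons IL-8 against vehicle, KC against vehicle and IL-8 against KC, with called members filled and 1.5-fold changes dotted. All intervals for KC against vehicle include 0, and Rb1cc1 lies near 0 throughout (0.13, 0.22 and -0.09).

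Within the complex, 4 members varied together over the 12 arrays and Rb1cc1 did not. The closest pair was Atg13 and Ambra1 (Pearson's r = 0.98, Spearman's rho = 0.94). Their r stayed at 0.94 for deviations from the group means, that is within groups. Ulk1 followed Atg13 (r = 0.92, rho = 0.89) and Ambra1 (r = 0.89, rho = 0.92), and Ulk2 followed Ulk1 (r = 0.83, rho = 0.85). Rb1cc1 had an r of 0.13 to 0.30 with the other members. These correlations are a description of 12 arrays, which share the treatment groups, the liver-transcript arrays and differences in array spread. The array spread went along with the same 4 members: r with the standard deviation over all genes of an array was 0.93 for Atg13, 0.92 for Ambra1, 0.81 for Ulk1 and 0.80 for Ulk2, but 0.07 for Rb1cc1. Over all genes, 0.479% had an r at least as high as Atg13, 0.703% as Ambra1, 5.78% as Ulk1, 6.36% as Ulk2 and 33.8% as Rb1cc1. Quantile normalization gives every array the same spread. The log2 fold changes for IL-8 against vehicle were then 1.20 for Ulk1, 0.48 for Ulk2, 0.64 for Atg13, 0.62 for Ambra1 and 0.06 for Rb1cc1. In that fit 0 members were called by limma (adjusted p of 0.116 to 0.130 for the first 4 and 0.891 for Rb1cc1). Of all genes 2 were called, against 592 without this step, so the loss of calls was not particular to the members.

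**Figure D4:**
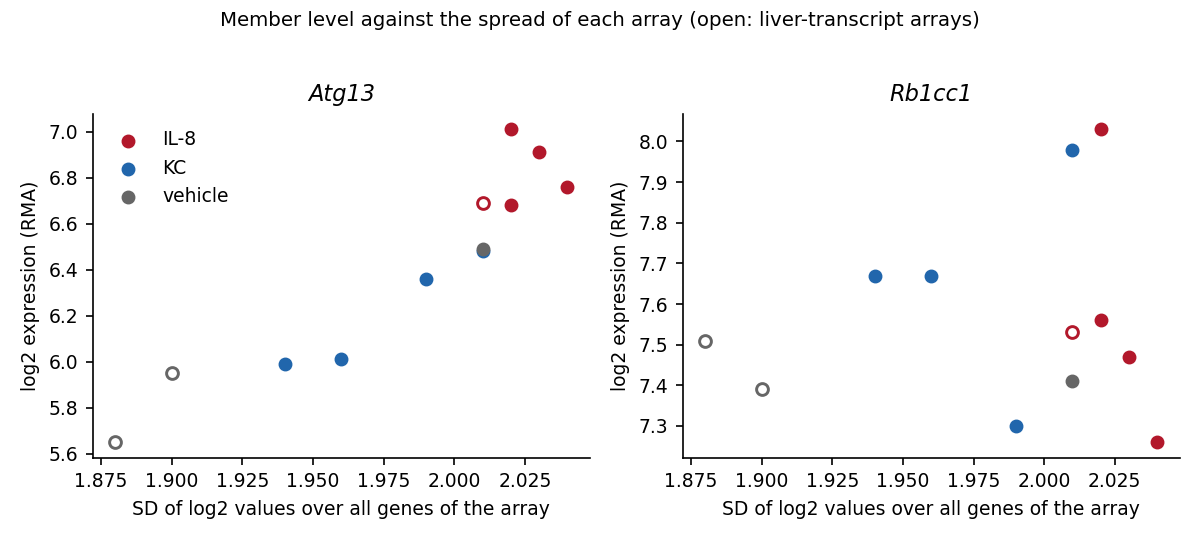
RMA log2 expression of Atg13 and Rb1cc1 (y axis) against the standard deviation of log2 values over all genes of each array (x axis) in the 12 arrays, colored by group, with the liver-transcript arrays open. Atg13 is higher in arrays of larger spread (r = 0.93), with vehicle replicates 2 and 4 at the low end and the IL-8 arrays at the high end, and Rb1cc1 has no such order (r = 0.07).

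Harbi1, named after the locus was looked at, lies between Atg13 and Ambra1, with 254 bases between it and the annotated Atg13 span, and runs in the opposite direction to Atg13. It was at 3.41 to 4.26 in IL-8 arrays, 3.49 to 4.28 in KC arrays and 3.54 to 4.09 in vehicle arrays, with a log2 fold change of 0.03 for IL-8 against vehicle (standard error 0.20, adjusted p = 0.945 by limma). The groups overlapped. Its r with Atg13 was 0.29 over the 12 arrays and 0.63 over the 9 arrays without liver transcripts, and with Ambra1 0.25 and 0.65. With Ulk1 it was 0.56 over the 12 arrays and 0.78 for deviations from the group means.

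Over all genes brighter than the median, the 3 whose levels followed each member most closely over the 12 arrays were named by their Pearson's r. For Ulk1 these were Gaa, the lysosomal enzyme that breaks down glycogen (r = 0.992), Prob1 (0.989) and the splicing factor Sf1 (0.987). For Ulk2 they were the peptidase Dpp8 (0.971), Rrp8 (0.963) and Zfp106 (0.953). Atg13 was followed by the death receptor Tnfrsf21 (0.982), the kinase Hipk1 (0.981) and Emc1 (0.975), a subunit of a complex that inserts membrane proteins. Ambra1 was followed by Nisch (0.984), Emc1 again (0.982) and Eif4ebp2 (0.979), a translation repressor that mTORC1 phosphorylates. For Rb1cc1 they were Nemf (0.934), which acts in ribosome quality control, Ascc3 (0.931) and the phospholipase Pnpla8 (0.929). Thus Atg13 and Ambra1 shared a gene among their closest, and none of the genes closest to Rb1cc1 was among those of another member.

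Atg101, the remaining subunit that stabilizes Atg13, was at 5.32 to 5.54 with IL-8, 5.20 to 5.80 with KC and 4.93 to 5.24 with vehicle. All IL-8 arrays lay above all vehicle arrays, but the log2 fold change of 0.27 (standard error 0.12) did not pass (adjusted p = 0.214 by limma). KC arrays were as high as IL-8 arrays, with a log2 fold change against vehicle of 0.36 (adjusted p = 0.994). Of the related kinases outside the complex, Ulk3 had a log2 fold change of 0.30 (adjusted p = 0.212) and Ulk4 of -0.35 (adjusted p = 0.207) for IL-8 against vehicle, both at levels of 2.59 to 3.44 over all arrays, where the array medians were 3.31 to 3.48.

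Around the complex, 78 genes were measured from 12 lists of regulators, partners and downstream machinery. By limma 8 of them were called higher with IL-8 than with vehicle and 0 lower, against 1.75% of all genes called higher. With genes at or below the median level left out, 14 list genes were called higher, and 749 of the 11592 genes. In the main fit before adjustment, 30 of the 78 were higher and 3 lower with a p under 0.05. The shares of all genes were 10.1% and 11.6%. The median log2 fold change was 0.25, against -0.07 over all genes. The lists were chosen with earlier results of these data known, so these shares are a description. Of 8 genes of mTORC1 and its brake, 3 were called higher, with adjusted p-values of 0.0908 to 0.0911 by limma. These were Rptor, the subunit that brings substrates to the kinase (log2 fold change 1.19, standard error 0.24), and Mtor, the kinase itself (1.08, 0.24). Also called was Tsc1, which restrains the kinase (1.02, 0.21). Tsc2 of the same list was estimated at 1.06 but missed the adjusted p limit (adjusted p = 0.121 by limma). At an unadjusted p under 0.05, 6 of the 8 genes were higher. Rptor was at 5.67 to 6.37 with IL-8, 4.84 to 5.84 with KC and 4.54 to 5.58 with vehicle. Mtor was at 5.40 to 6.18, 4.65 to 5.77 and 4.31 to 5.40 in the same order, so its lowest IL-8 array met its highest vehicle array.

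Of 8 genes of AMPK and its kinase, 0 were called. At an unadjusted p under 0.05 by limma 3 were higher, against 10.1% of all genes. Stk11, the LKB1 kinase that activates AMPK, had a log2 fold change of 0.54 (adjusted p = 0.0994, under the fold change limit) and Prkab2, an AMPK subunit of muscle, 0.59 (adjusted p = 0.110). Among the ubiquitin and chaperone regulators of Ulk1, 0 of 7 were called. The deubiquitinase Usp24 had 0.87 (adjusted p = 0.111) and the chaperone partner Cdc37 0.39 (adjusted p = 0.137). Of 6 ligase partners of Ambra1, 1 was called higher, against 1.75% of all genes: Ddb1, the adaptor of the cullin 4 ubiquitin ligase. It was at 7.42 to 7.96 with IL-8 and 6.49 to 7.26 with vehicle (log2 fold change 0.87, standard error 0.19, adjusted p = 0.0908).

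Downstream of the kinase, in the class III PI3K complex that Ulk1 activates, 0 of 7 were called and the median log2 fold change was 0.15, with Rubcn, an inhibitor of the complex, at 0.55 (adjusted p = 0.116) and the subunit Pik3r4 at 0.71 (adjusted p = 0.140). Of 8 genes of Atg9 vesicles, lipid transfer and Wipi proteins, 1 was called higher, against 1.75% of all genes: the lipid transfer protein gene Atg2b. It was at 4.70 to 5.39 with IL-8 and 3.83 to 4.67 with vehicle (log2 fold change 1.02, standard error 0.22, adjusted p = 0.0908). Atg2a had a larger estimate of 1.16 but was not called (adjusted p = 0.102 by limma). Of the 8, 4 were higher at an unadjusted p under 0.05 by limma, against 10.1% of all genes. The conjugation enzymes that attach Atg8 proteins to the membrane had 0 of 11 called and a median of 0.06, with Atg3 at -0.43 (adjusted p = 0.155) and Atg16l1 at 0.44 (adjusted p = 0.188). The Atg8 family itself had 0 of 5 called and a median of 0.02, with Gabarap at -0.37 (adjusted p = 0.202) and Gabarapl1 at 0.31 (adjusted p = 0.392). Of 7 autophagy receptors, 1 was called higher, Nbr1, which binds ubiquitinated cargo (log2 fold change 0.64, standard error 0.14, adjusted p = 0.0911). Calcoco1 had the same estimate of 0.64 but was not called (adjusted p = 0.123 by limma). Of 7 transcription factors of autophagy genes, Foxo1 (0.92, adjusted p = 0.0914) and Foxo3 (0.95, adjusted p = 0.0908) were called higher. The study named both from these arrays, so they are not independent evidence. For all 78 genes, the count was 26 without vehicle replicate 1, 19 without IL-8 replicate 1 and 0 without any other array of these groups. In the same fits limma called 3338, 1227 and 7 or fewer of all genes.

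**Figure D5:**
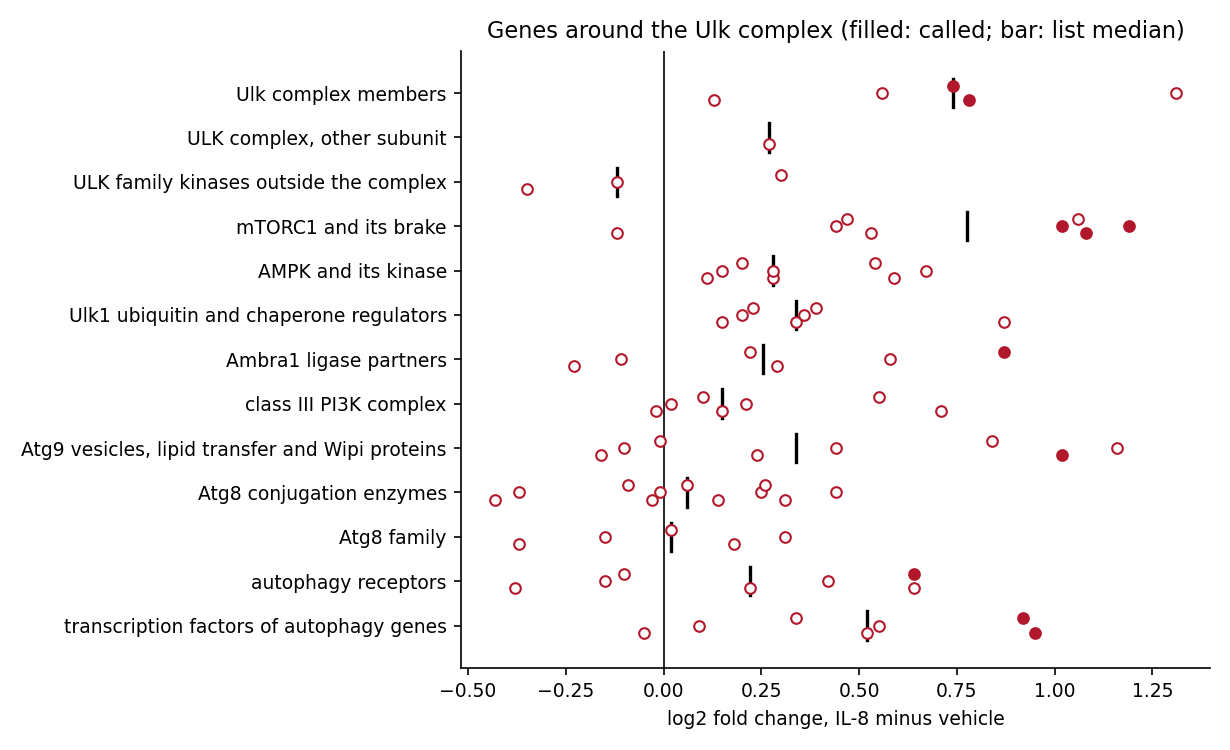
Log2 fold changes from limma for IL-8 minus vehicle (x axis) of the 5 members and the 78 measured genes of 12 lists around the complex (y axis), 1 point per gene, with called genes filled and the list median as a bar. The lists of mTORC1 and of transcription factors have the medians 0.77 and 0.52, and the Atg8 family and conjugation enzymes lie around 0 (0.02 and 0.06).

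For KC against vehicle, 0 of the 78 genes were called by limma, with 5 higher and 1 lower at an unadjusted p under 0.05, against 1.66% and 2.32% of all genes. Rptor, Mtor and Tsc1 had log2 fold changes of 0.29, 0.40 and 0.46, all with an adjusted p of 0.994. For IL-8 against KC, 7 of 78 genes were called, all higher with IL-8, against 1.61% of all genes called higher: Rptor and Tsc2 of the mTORC1 list, Prkaa2 and Stk11 of the AMPK list, the receptor Calcoco1, and the transcription factors Foxo1 and Tfeb. Rptor and Foxo1 were called against both vehicle and KC, and both comparisons use the same IL-8 arrays. The count of 7 was 17 without KC replicate 1, 12 without IL-8 replicate 1, 3 without KC replicate 2 and 0 by limma without any other array of these groups.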

How the data were processed

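Whole muscle RNA was measured on Mouse Gene 2.0 ST arrays. The authors deposited log2 values made by RMA (affy 1.36.1 in R 2.15.1, per the submitters' processing notes), which corrects background, equalizes probe distributions between arrays and gives 1 value per gene. The sources used here do not say whether all 12 arrays went through a single run. Of 25206 entries, 23185 had 1 symbol in the platform annotation, and 2021 unnamed entries were not tested except in the setting named for them. Loci and promoters came from RefSeq (GRCm38.p6), which listed 4 of the 5 members' promoters.

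Each pair of groups was fitted on its own arrays with limma 3.58.1 (R 4.3.3; lmFit and eBayes, Benjamini-Hochberg over all named genes). Calls needed an adjusted p no higher than 0.1 and a change of 1.5-fold or more. The study set a q-value of at most 0.1 and 1.5-fold, by comparative marker selection, which was not run here. Exact permutation tests were two-sided, and the text prints their p only for members; over all genes they served as an alternative. Liver-transcript arrays had Alb above 7. Named genes were the members and the 3 most correlated genes per member, without predicted genes, olfactory receptors and small RNAs. Up to 3 called genes per list, or the 2 with the smallest p for IL-8 against vehicle, were named too. Harbi1, the called genes for IL-8 against KC, and Tsc2, Atg2a and Calcoco1 for IL-8 against vehicle were named after their values were seen. The members and lists were chosen with earlier results of these data known. List genes without a matching entry (Hsp90ab1, Optn) were not analysed here. The fits were tested on simulated data with seed 1. Alternatives covered the fit, filter, normalization, weights, block, test and thresholds, and each array was left out in turn. Counts over the lists under each alternative, and the fit of the paired arrays without the block, were chosen after values were seen.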

Additional observations from a re-analysis of the deposited data

How the results depend on the processing

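For IL-8 against vehicle, 2 members and 8 list genes were called, among 592 of all genes. Both counts were 0 with quantile normalization, the replicate block and the same arrays without that block. They were also 0 with the Welch t-test, the exact permutation test, an adjusted p of at most 0.05 and the liver-transcript block. Over all genes, 2 were called with quantile normalization, 2 at 0.05 and 0 in each of the other settings just listed. These counts of 0 are therefore not particular to the members or lists. Omitting the liver-transcript arrays left 1 vehicle array, so no counts are given for it. With all 12 arrays in 1 fit the counts were 0 members and 4 list genes, among 117 of all genes. Array weights gave 4 and 22, among 2083 of all genes. Leaving out dim genes gave 14 list genes among 944 called, and Storey q-values 16 among 1531. Both had the same 3 members, Ulk1, Atg13 and Ambra1. Leaving out each array gave 0 to 4 members and 0 to 26 list genes, among 0 to 3338 of all genes.

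For IL-8 against KC, 2 members and 7 list genes were called. Both counts were 0 with all 12 arrays in 1 fit, the replicate block and the same arrays without it. They were also 0 with the Welch t-test, the exact permutation test and an adjusted p of at most 0.05. In the fit of all 12 arrays limma called 1 of all genes, against 700 in the main fit. Quantile normalization kept 1 member, Ulk1, and called 657 of all genes. List genes numbered 11 without dim genes, 11 with Storey q-values, 13 with array weights and 12 with the liver-transcript arrays blocked or left out. Leaving out each array gave 0 to 4 members and 0 to 17 list genes. For KC against vehicle, both counts were 0 under all alternatives run.

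The fold change of Rb1cc1 for IL-8 against vehicle turned to -0.02 with the replicate block and on the same arrays without it. For KC against vehicle, omitting the liver-transcript arrays turned Ulk1 to -0.53, Ulk2 to -0.16, Atg13 to -0.28 and Ambra1 to -0.20, and leaving out single arrays gave -0.12 to 0.38 for Ulk1, -0.10 to 0.33 for Ulk2, -0.01 to 0.41 for Atg13 and -0.02 to 0.42 for Ambra1. For IL-8 against KC, Rb1cc1 ranged over -0.20 to 0.02. The other directions held in all alternatives and omissions run. The cause of these changes was not tested, beyond the smaller number of arrays in the fits that omit some. Same-numbered arrays deviated together with an r of -0.36 to 0.36, so the numbers were not taken to pair the arrays. The exact permutation test could not call a gene at these group sizes unless 4141, 6625 or 1841 genes reached its smallest p (IL-8 against vehicle, KC against vehicle, IL-8 against KC), and 1903, 659 and 1023 did, so its counts of 0 say nothing about stability. The number of arrays, 3 to 5 per group, limits all values.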
